A study of Mus musculus with 16 samples.

Results

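Macrophages of perigonadal fat that carry CD11b and the macrophage antigen encoded by Adgre1 but lack CD11c, called FB cells here as in the labels, were compared between obese and lean mice. The comparison used 8 of the 16 arrays of the series, 4 of lean and 4 of obese FB cells, chosen by their labelled genotype and sort gate. All 11908 genes bright enough to test were members, and no test of the change was used to choose them. The brightness rule asked for 4 of the 16 arrays, so a gene bright in only a single group of 4 arrays could enter. The genes named below were in large part chosen by their results. The lean mice were C57BL/6J Lep +/+ and the obese mice C57BL/6J Lep ob/ob, and both groups were 12 to 14 weeks old. The Lep ob/ob mouse lacks functional leptin in every tissue from birth, so obesity and the absence of leptin signalling cannot be told apart in this model. The other 8 arrays held CD11c-positive cells, called FBC cells, from the same kinds of mice, and the series design gives 4 lean and 4 obese mice as the source of both cell types. The RNA of every sample went through 2 rounds of amplification before it was hybridised to an Affymetrix mouse whole-genome array.

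Adipose tissue macrophages clear dying fat cells, take up and break down lipid, and answer to cytokines, lipids and dead cells through surface receptors. Resident macrophages of lean fat carry scavenger receptors and lectins and are held in place by signals from stromal cells, while monocytes that enter obese fat differentiate into cells that handle large amounts of lipid. Retinoic acid, interferons, lipid mediators and guidance molecules are among the signals that adjust such cells.

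Levels are log2(intensity + 16) after quantile normalization, changes are obese minus lean differences on that scale ± SE, and a gene was called where its limma adjusted p was under 0.05. The scale understates the change of dim genes. Precision is limited by how many arrays there are, and each p reflects no more than how far these arrays vary. A lower level in a sorted sample can reflect fewer cells of a type or less RNA per cell, and the arrays cannot tell these apart. Changes near the array median of 5.87 are imprecise in size.

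The targeted gene was read first. Lep was at 5.03, 4.43, 4.28 and 4.62 on lean FB arrays 1 to 4 and at 4.64, 6.02, 5.41 and 6.31 on obese FB arrays 1 to 4 (means 4.59 and 5.60, SE of the difference 0.36, adjusted p = 0.12). Lep is an adipocyte gene, the ob allele changes a single base of its coding sequence, and most of these levels lay below the array median, so they check nothing about the labels. The sort markers were at similar levels in both groups. Adgre1, the sorted macrophage antigen, was between 12.11 and 13.28 on the 8 FB arrays, with a difference of -0.02 ± 0.24 (adjusted p = 0.979). Itgam, which encodes CD11b, differed by 0.12 ± 0.29 (adjusted p = 0.859), and Itgax, which encodes CD11c, by -0.02 ± 0.26 (adjusted p = 0.976). Of 18 macrophage markers, all were tested and 2 were called (11.1%, against 5.89% of all genes tested). Mpeg1, a pore-forming protein of macrophages, rose by 0.56 ± 0.14, a call that ended when any 1 was left out of lean FB arrays 1, 2 or 3 or obese FB arrays 1, 2 or 3 (highest adjusted p = 0.111). It also ended without normalization beyond the deposited scaling, with median centring, with cyclic loess and with only the FB arrays in the fit. The haemoglobin scavenger receptor Cd163 fell by 2.11 on the log2 scale.

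The arrays numbered 4 stood apart from the others. For actin, signal at the 3' end relative to the 5' end, which rises as RNA is shortened, was 53.3 on lean FB array 4 and 45.0 on obese FB array 4, against 2.32 to 10.9 on the other FB arrays. Over the 8 FB arrays, the first principal component held 45.8% of the variance and the second 20.3%. Lean FB arrays 1 to 3 had first component scores of -40.8, -46.8 and -45.6, and obese FB arrays had 27.0 to 31.9. Lean FB array 4, at 14.3, lay on the side of the obese arrays. On the second component the arrays numbered 4 had the highest scores, 44.8 for lean and 27.9 for obese. For most gene lists below, counts without these 2 arrays are given beside those with all arrays. Without them 5.22% of all genes tested rose and 7.33% fell, against 1.81% and 4.07% with all arrays. A higher list count without them is therefore not by itself a result about the list.

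**Figure D1:**
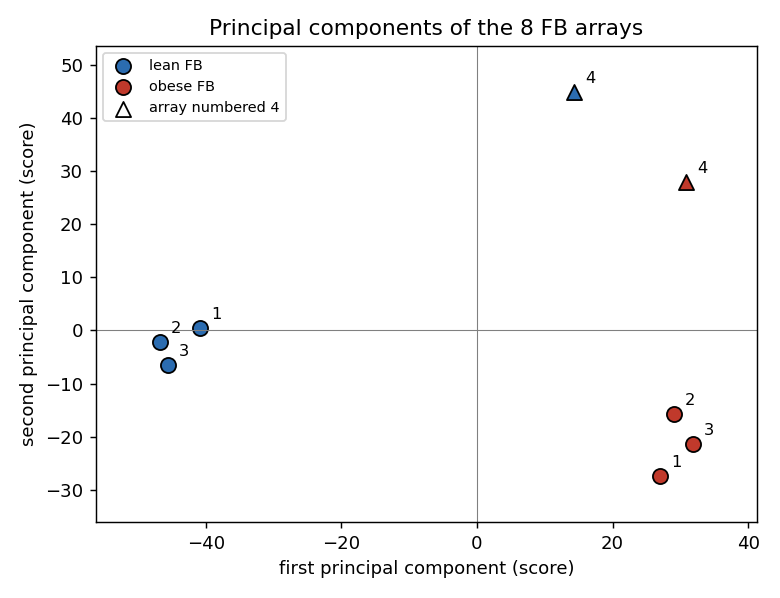
First (horizontal) and second (vertical) principal component scores of the 8 FB arrays, computed over the genes tested, with lean arrays in blue, obese arrays in red, array numbers beside the points and triangles for the arrays numbered 4. Lean FB array 4 sits at 14.3 on the first component, away from the other lean arrays at -40.8 to -46.8, and both triangles sit highest on the second component.

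Markers of other cell types also moved between arrays. The mean level of 19 fibroblast and preadipocyte markers was 9.28 to 9.51 on lean FB arrays 1 to 3, 7.40 on lean FB array 4 and 7.16 to 7.42 on the obese arrays. Of the 18 that were tested, 7 fell (38.9%, against 4.07% of all genes tested), and without the arrays numbered 4, 14 fell. Among the 7 were the growth factor receptor Pdgfra (-2.30 ± 0.49) and the matrix proteoglycan decorin, Dcn (-2.86 ± 0.77). The call of Dcn ended without any single FB array other than lean FB array 4 (highest adjusted p = 0.123), and its other probe set moved the other way. Of this list, the marker Clec3b lay below the array median on all 8 FB arrays. Mesothelial and epithelial markers had a mean level of 6.24 to 6.81 on lean FB arrays 1 to 3, 6.12 on lean FB array 4 and 5.06 to 5.92 on the obese arrays. Of 14, 4 fell (28.6%, against 4.07% of all genes tested), or 9 without the arrays numbered 4. Monocyte markers went the other way, from 10.40 to 10.63 on lean FB arrays 1 to 3, with lean FB array 4 at 11.74 and the obese arrays at 11.58 to 12.18. Of 12, 4 rose (33.3%, against 1.81% of all genes tested), or 7 without the arrays numbered 4. Eosinophil markers, of which Epx, Prg2 and Prg3 lay below the array median on all FB arrays, averaged 7.77 on lean FB array 4, 5.48 to 5.79 on the other lean arrays and 4.80 to 6.37 on the obese arrays. The T and NK cell markers Cd3e, Cd3d and Cd3g lay below the array median on all 8 FB arrays. Fallers among the fibroblast markers numbered 3, 2, 2 and 14 with each lean array 1 to 4 omitted and 3, 3, 3 and 5 with each obese array omitted. Risers among the monocyte markers numbered 1, 1, 1 and 7, and 3, 1, 1 and 2, and fallers among the mesothelial markers 3, 1, 1 and 8, and 2, 1, 1 and 4, in the same order. The part of these cells in the results below was not tested.

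**Figure D2:**
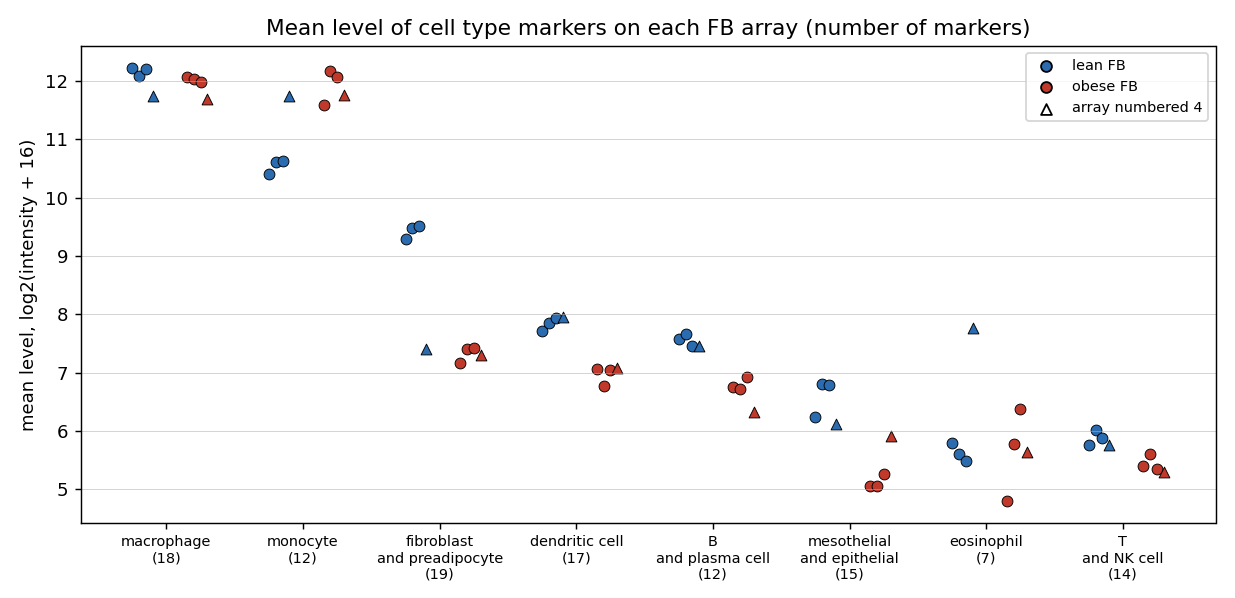
Mean level, as log2(intensity + 16), of the markers of 8 cell types on each FB array, with the number of markers on the array in parentheses, lean arrays in blue, obese arrays in red and triangles for the arrays numbered 4. The fibroblast level of lean FB array 4 (7.40) lies among the obese arrays, and its eosinophil level (7.77) lies above all other FB arrays.

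Among the genes called, more were lower than higher in obese FB cells, while over all genes tested 6390 were higher and 5518 lower. Of the 11908 genes tested, 701 were called (5.89%), of which 216 rose (1.81%) and 485 fell (4.07%), and 490 changed by at least 2-fold. Thus 30.8% of the calls were higher, a share that was 39.4% without lean FB array 4 and 52.6% with array weights, where 2097 genes were higher and 1890 lower, so that the excess of fallers turned around. The median change of the genes that rose was 0.99 and that of the genes that fell was -1.51, against 0.03 over all genes tested. The lean and obese arrays did not overlap for 603 of the called genes, against 1410 of all genes tested (11.8%). In 231 of the called genes the lower group lay below the array median. Omission of lean FB array 1, 2, 3 or 4 gave 401, 333, 336 and 1501 calls, and omission of obese FB array 1, 2, 3 or 4 gave 512, 444, 395 and 763.

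The changes with the lowest p-values covered a vitamin A enzyme, a potassium channel, adhesion molecules and receptors. Aldh1a2, the enzyme that makes retinoic acid from retinaldehyde, was at 10.09, 10.72, 10.86 and 9.80 on lean FB arrays 1 to 4 and at 7.15, 6.94, 6.62 and 6.65 on obese FB arrays 1 to 4 (-3.53 ± 0.24, adjusted p = 1.02e-06). Kcnq1, a voltage-gated potassium channel, was at 7.83, 7.99, 7.93 and 6.95 in lean and at 4.82, 4.64, 5.01 and 4.76 in obese FB cells (-2.87 ± 0.24, adjusted p = 3.97e-06). For both genes every obese array lay below every lean array, which the rule that took the largest changes required of Aldh1a2. Sel1l3, a membrane protein of little known function, was at 5.88, 5.92, 5.75 and 5.67 in lean and at 7.84, 7.45, 8.24 and 8.02 in obese FB cells (2.08 ± 0.17, adjusted p = 3.97e-06). Rnf128, a ubiquitin ligase of the endosomal membrane, was at 7.37, 7.21, 7.33 and 8.23 in lean and at 11.08, 10.28, 10.68 and 10.65 in obese FB cells. Its lean array 4 was the highest of the lean arrays and still lay below every obese array. These 4 genes kept their calls in each of the 22 other settings run, among them each FB array left out in turn.

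**Figure D3:**
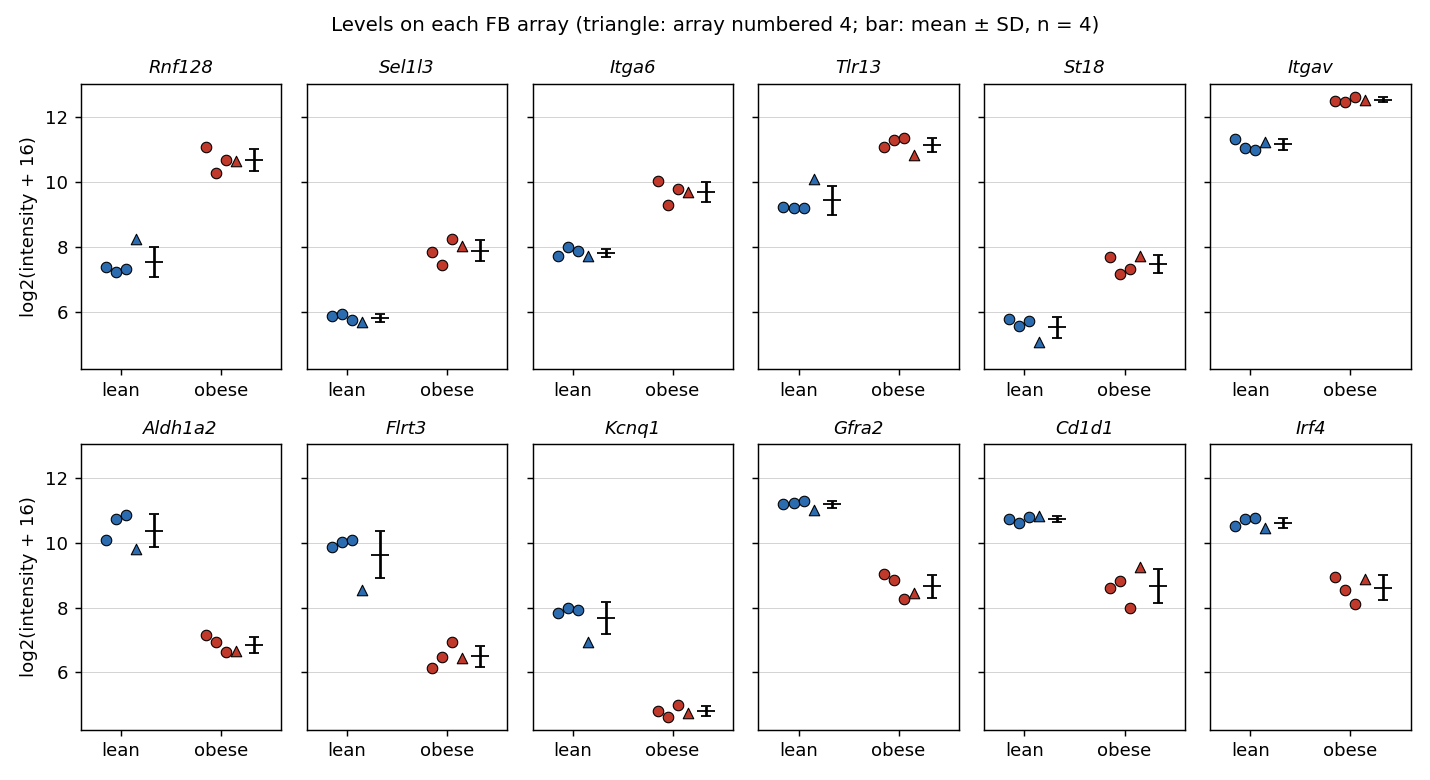
Levels of 12 genes, as log2(intensity + 16), on the lean (blue) and obese (red) FB arrays, with triangles for the arrays numbered 4 and bars for mean ± SD over 4 arrays. The 6 genes of the upper row were higher and the 6 of the lower row lower in obese FB cells, with no overlap between lean and obese arrays in any panel. For Rnf128, Sel1l3, Itga6, St18, Aldh1a2 and Flrt3 the rule that took the largest changes required this lack of overlap.

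Single integrin chains, which no list grouped, were among the genes that rose. Itga6, a laminin-binding integrin chain, was at 7.72 to 7.98 on the lean and at 9.29 to 10.01 on the obese FB arrays (1.87 ± 0.22, adjusted p = 9.13e-05). Itgav, the integrin chain that binds vitronectin and activates latent TGF-beta, was at 11.34, 11.04, 10.99 and 11.24 in lean and at 12.50, 12.45, 12.63 and 12.52 in obese FB cells (1.37 ± 0.21, adjusted p = 0.00109). Itga8, which pairs with integrin beta 1 to bind nephronectin, rose by 1.84 ± 0.26 from a mean near the array median. All 3 had arrays that did not overlap, which the rule that took the largest changes required of Itga6 and Itga8. Of 70 actin cytoskeleton genes, 2 rose and 5 fell (10% called, against 5.89% of all genes tested). The risers were alpha-actinin 1, Actn1 (1.69 ± 0.29), which anchors actin filaments at adhesions, and the filopodial motor Myo10 (1.14 ± 0.15). Cyfip2, a subunit of the complex that starts branched actin networks, rose by 2.05 ± 0.37 with all arrays and by 2.70 without the arrays numbered 4, on which the obese minus lean difference was 0.10.

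The fallers of the actin list were the profilin Pfn2 (-1.35 ± 0.23), the bundling protein fascin, Fscn1, the cortactin gene Cttn, the talin Tln2 and the severing protein gelsolin, Gsn. Gsn was the most abundant of the genes that fell, at 13.59, 13.69, 13.76 and 13.47 in lean and 12.49, 12.87, 13.05 and 13.14 in obese FB cells (-0.74 ± 0.19, adjusted p = 0.0305). Gsn also stands in the fibroblast marker list, and its call ended when any 1 was left out of lean FB arrays 1, 2 or 3 or obese FB arrays 1, 2 or 3 (highest adjusted p = 0.101). The Gsn call also ended with median centring and with only the FB arrays in the fit. With the arrays numbered 4 left out, 10 actin genes rose and 7 fell, against 5.22% and 7.33% of all genes tested. Fallers numbered 3, 2 and 2 without lean FB arrays 1, 2 and 3 and 3 without obese FB array 2 or 3, and with lean FB array 4 left out 5 rose. The call of Cttn ended without lean FB array 1, 2 or 3 (highest adjusted p = 0.0714) and with the mean of its probe sets (0.181), and that of Tln2 without lean FB array 2 or 3 or obese FB array 2 or 3 (highest adjusted p = 0.0792). That of Fscn1 ended with the mean of its probe sets (adjusted p = 0.0823). Of 32 other cell adhesion molecules, 4 rose and 5 fell (28.1% called, against 5.89% of all genes tested). The count of fallers was 3 without any of lean FB arrays 1, 2 or 3 or obese FB arrays 1 or 2. When the arrays numbered 4 were left out, 5 rose and 7 fell. The largest rise was that of Cadm1, an immunoglobulin-family adhesion molecule, at 7.26, 7.59, 7.69 and 7.69 in lean and 10.36, 8.79, 9.77 and 8.64 in obese FB cells (1.83 ± 0.30, adjusted p = 0.00167). The largest fall was that of Lyve1, a hyaluronan receptor of resident macrophages, from 13.17, 12.96, 13.03 and 11.58 to 9.61, 10.02, 9.14 and 9.14 (-3.21 ± 0.70, adjusted p = 0.0122).

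The next genes are single receptors of innate immunity among the risers. Fpr2 also stands in the list of lipid mediator, amine and peptide receptors below, of which 4 fell and 1 rose. Tlr13, an endosomal receptor for bacterial ribosomal RNA, was at 9.23, 9.20, 9.18 and 10.10 in lean and at 11.08, 11.29, 11.34 and 10.84 in obese FB cells (1.71 ± 0.20, adjusted p = 8.53e-05). Fpr2, a receptor for formylated peptides and lipid mediators, was at 9.82, 9.91, 9.90 and 11.45 in lean and at 11.62, 12.29, 12.37 and 12.37 in obese FB cells (1.89 ± 0.33, adjusted p = 0.00281). Fcgr4, an activating receptor for immunoglobulin G, was at 7.11, 7.33, 7.68 and 8.76 in lean and at 9.78, 9.30, 9.67 and 9.88 in obese FB cells (1.94 ± 0.32, adjusted p = 0.00167). In these 3 genes lean FB array 4 was the highest lean array and still lay below all obese arrays. Cx3cr1, the fractalkine receptor of monocytes and their progeny, rose by 1.80 ± 0.32, and on the arrays numbered 4 the difference was 0.62. Sirpb1a, an activating paired receptor, rose by 2.06 ± 0.39, but its level of 11.15 on lean FB array 4 lay above the lowest obese array at 11.11. Of 28 paired receptors and their adaptors 2 rose and 0 fell with all arrays (7.14% called, against 5.89% of all genes tested). Without the arrays numbered 4, 6 rose and 0 fell. With lean FB array 2 or 3 or obese FB array 2 or 3 left out 1 rose, and with lean FB array 4 left out 6 rose. Monocyte markers averaged 10.40 to 10.63 on lean FB arrays 1 to 3, 11.74 on lean FB array 4 and 11.58 to 12.18 on the obese arrays, and their part was not tested.

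Receptors for lipid mediators, amines and peptides mostly went down among those called. Of 30 such receptors 4 fell and 1, Fpr2, rose (16.7% called, against 5.89% of all genes tested), with a median change of 0.11. Lpar1, a receptor for lysophosphatidic acid, was at 9.13, 9.60, 9.58 and 8.53 in lean and at 8.05, 6.92, 6.80 and 6.79 in obese FB cells (-2.07 ± 0.29, adjusted p = 0.000556). Hrh1, the histamine H1 receptor, was at 9.35, 9.62, 9.20 and 8.16 in lean and at 6.73, 7.24, 6.61 and 6.85 in obese FB cells (-2.22 ± 0.37, adjusted p = 0.00179). Ptger3, a prostaglandin E2 receptor, fell by 1.17 on the log2 scale. S1pr3, a sphingosine 1-phosphate receptor, was at 8.53, 8.67, 8.45 and 6.10 in lean and 5.94, 5.59, 5.97 and 6.62 in obese FB cells, so that its groups overlapped on the arrays numbered 4, and its call ended when any 1 was left out of lean FB arrays 1, 2 or 3 or obese FB arrays 2 or 3 (highest adjusted p = 0.0836). The S1pr3 call also ended with the mean of its probe sets and with only the FB arrays in the fit. Sphk1, the kinase that makes sphingosine 1-phosphate, fell from 7.75 to 8.76 on the lean arrays to 6.40 to 7.34 on the obese arrays (-1.50 ± 0.24, adjusted p = 0.00157). Without the arrays numbered 4, 4 of these receptors rose and 4 fell, and with lean FB array 4 alone left out, 5 rose and 4 fell.

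Among 34 cyclic nucleotide signalling genes 6 fell and 0 rose (17.6% called, against 5.89% of all genes tested). Their changes were positive in 16 and negative in 18, with a median of -0.02, and without the arrays numbered 4, 5 fell and 1 rose. One of the 6, Gnai1, the inhibitory G protein subunit that lowers cyclic AMP, was at 7.83, 8.72, 7.94 and 6.67 in lean and at 5.65, 5.18, 5.63 and 5.15 in obese FB cells (-2.39 ± 0.39, adjusted p = 0.00157). The count of 6 was 2 and 1 with lean FB array 2 or 3 omitted and 1, 2 and 1 with obese FB array 1, 2 or 3 omitted, and 2 fell and 2 rose without obese FB array 4. Genes outside that list follow. Gfra2, the neurturin receptor, was at 11.20, 11.23, 11.28 and 11.01 in lean and at 9.05, 8.84, 8.25 and 8.45 in obese FB cells (-2.53 ± 0.25, adjusted p = 1.64e-05). The obese minus lean difference of Gfra2 on the arrays numbered 4 was -2.55, equal to the change over all arrays within its error. Adm, which encodes the vasodilator peptide adrenomedullin, was at 9.30, 9.20, 9.28 and 8.11 in lean and at 6.01, 6.58, 6.20 and 6.12 in obese FB cells (-2.75 ± 0.35, adjusted p = 0.000214). Penk, which encodes enkephalin opioid peptides, fell by 3.12 on the log2 scale, and Ackr3, a scavenging receptor for CXCL12, fell by 3.72, with the obese arrays below the array median in both. Their differences were -1.80 and -1.25 on the arrays numbered 4, against -3.56 and -4.54 on arrays 1 to 3. Ackr3 was at 9.51, 9.89, 10.02 and 7.09 on lean FB arrays 1 to 4. Fibroblast markers averaged 9.28 to 9.51 on lean FB arrays 1 to 3 and 7.40 on lean FB array 4, and their part was not tested.

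Of 26 cytokine receptors 3 fell and 0 rose (11.5% called, against 5.89% of all genes tested), with a median of 0.04. The clearest was Il18r1, the interleukin 18 receptor, at 7.15, 8.04, 7.95 and 6.75 in lean and 5.81, 5.53, 4.45 and 6.44 in obese FB cells (-1.92 ± 0.40, adjusted p = 0.00963). With the arrays numbered 4 left out, 4 cytokine receptors rose and 2 fell. The count of 3 fell to 1 without lean FB array 2 or 3 or obese FB array 3, and without lean FB array 4, 3 rose and 3 fell. Socs2, a feedback inhibitor of growth hormone signalling, fell by 2.36 on the log2 scale, but 1 of its 5 other probe sets moved the same way and the mean of its probe sets was not called (adjusted p = 0.181). Of 27 growth factors, 5 fell and 1 rose (22.2% called, against 5.89% of all genes tested), with a median of -0.71. Without the arrays numbered 4, 8 fell and 1 rose. Ereg, an EGF receptor ligand, was at 7.28, 6.78, 7.16 and 7.28 in lean and at 4.63, 5.08, 5.33 and 6.16 in obese FB cells (-1.82 ± 0.26, adjusted p = 0.000586).

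The count of growth factors that fell was 2, 1 and 1 without lean FB arrays 1, 2 and 3, 7 without lean FB array 4 and 1 without obese FB array 2 or 3. Lif, a cytokine of the interleukin 6 family, was the only one called higher, at 7.77, 8.15, 8.21 and 8.89 in lean and 9.23, 9.57, 9.16 and 9.27 in obese FB cells (1.05 ± 0.22, adjusted p = 0.00881). Its second probe set moved the other way, and the mean of both was not called (adjusted p = 0.0753). The mean centred level of the growth factor list was 0.35 to 0.63 on lean FB arrays 1 to 3, -0.07 on lean FB array 4 and -0.45 to -0.27 on the obese arrays. Fibroblast markers stood beside it with 9.28 to 9.51, 7.40 and 7.16 to 7.42 on the same arrays, and their part was not tested. Of the receptors for TGF-beta, which restrains macrophage activation, Tgfbr1 rose from 10.61, 10.43, 10.59 and 10.39 to 11.45, 11.48, 11.56 and 11.49 (0.99 ± 0.19, adjusted p = 0.00457). Of 27 TGF-beta and BMP signalling genes it was the only riser, and 1 fell (7.41% called, against 5.89% of all genes tested). The count of fallers became 5 without lean FB array 4 and 4 without the arrays numbered 4.

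Axon guidance families, whose ligands and receptors also steer leukocytes, held 11 genes that fell and 0 that rose among 42 tested. Their share called was 26.2%, against 5.89% of all genes tested, and their median change was -0.44. Flrt3, an adhesion molecule that binds latrophilin and Unc5 receptors, was at 9.88, 10.03, 10.07 and 8.55 in lean and at 6.15, 6.48, 6.92 and 6.44 in obese FB cells (-3.14 ± 0.29, adjusted p = 1.05e-05). Sema3c, a secreted semaphorin, was at 7.32, 7.85, 7.73 and 6.27 in lean and at 6.04, 4.98, 4.88 and 5.78 in obese FB cells (-1.87 ± 0.35, adjusted p = 0.00425). Sema4a, a membrane semaphorin of immune cells, was the brightest of the called members, at 12.39, 12.61, 12.44 and 11.99 in lean and at 11.22, 11.57, 11.41 and 11.52 in obese FB cells (-0.93 ± 0.20, adjusted p = 0.0115), and without lean FB array 2 its adjusted p was 0.0515. The semaphorin receptor Plxnd1 fell by 0.87 on the log2 scale, a call that ended when any 1 was left out of lean FB arrays 1, 2 or 3 or obese FB arrays 1 or 4 (highest adjusted p = 0.116). The Plxnd1 call also ended with median centring. When the arrays numbered 4 were left out, 14 of the 42 fell and 1 rose. The count was 7, 4 and 5 with lean FB array 1, 2 or 3 omitted and 4, 7 and 7 with obese FB array 1, 3 or 4 omitted. On lean FB array 4 the mean centred level of the list was 0.02, between the other lean arrays (0.23 to 0.50) and the obese arrays (-0.38 to -0.16). Fibroblast markers had mean centred levels of 1.22 to 1.42, -0.73 and -0.98 to -0.74 on lean FB arrays 1 to 3, lean FB array 4 and the obese arrays, and their part was not tested.

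**Figure D4:**
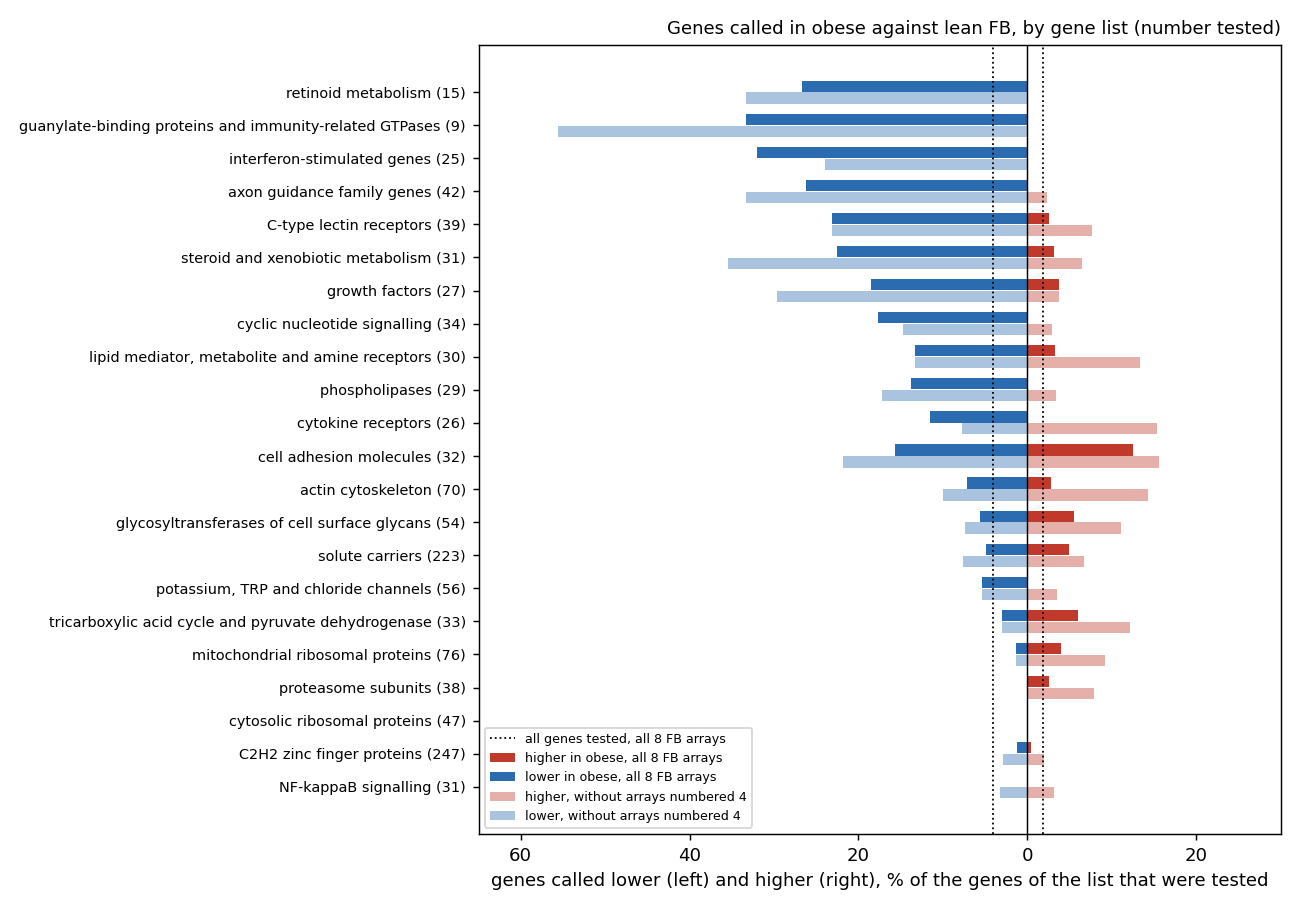
Genes called lower (left, blue) and higher (right, red) in obese FB cells as a percentage of the tested members of 22 gene lists, with the number tested in parentheses, for all 8 FB arrays (dark) and without the arrays numbered 4 (pale). The dotted lines mark the shares over all genes tested with all arrays, 4.07% lower and 1.81% higher. No line marks the shares for the pale bars, 7.33% lower and 5.22% higher without the arrays numbered 4. With all arrays the guanylate-binding protein, interferon, retinoid and guidance lists extend furthest to the left.

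Enzymes of vitamin A metabolism were among the lists with the highest share of fallers, 4 of 15 (26.7%, against 4.07% of all genes tested). None rose, and the median was -0.46. Beside Aldh1a2, the retinaldehyde dehydrogenases Aldh1a1 (-2.39 ± 0.67, adjusted p = 0.0441) and Aldh1a3 (-1.89 ± 0.52, adjusted p = 0.0401) and the plasma retinol carrier Rbp4 (-0.99 ± 0.19, adjusted p = 0.00457) fell. Aldh1a1 was at 8.50, 9.36, 9.41 and 7.20 in lean and at 6.36, 5.81, 5.91 and 6.84 in obese FB cells. Aldh1a3 was at 7.63, 7.88, 7.81 and 5.30 in lean and at 5.12, 5.35, 4.97 and 5.63 in obese FB cells, and its groups overlapped because lean FB array 4 lay within the obese range. The calls of Aldh1a1 and Aldh1a3 ended when any 1 was left out of lean FB arrays 1, 2 or 3 or obese FB arrays 1, 2 or 3, which left 2 of the 15 called, while 4 stayed called without obese FB array 4 and 5 fell without lean FB array 4. Aldh1a2 and Rbp4 did not lose their calls, and on the arrays numbered 4 their differences were -3.14 and -0.67. The mean centred level of the retinoid list was 0.26 to 0.73 on lean FB arrays 1 to 3, 0.03 on lean FB array 4 and -0.60 to -0.16 on the obese arrays. On the same arrays fibroblast markers had 1.22 to 1.42, -0.73 and -0.98 to -0.74, and mesothelial markers 0.36 to 0.92, 0.17 and -0.92 to 0.06, and the part of either was not tested. Without the arrays numbered 4, 5 retinoid genes fell.

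Steroid and xenobiotic metabolism gave 7 fallers and 1 riser among 31 genes (25.8% called, against 5.89% of all genes tested), with a median of -0.47. Akr1c18, which inactivates progesterone, was at 8.20, 8.09, 8.11 and 7.69 in lean and at 4.87, 5.30, 5.81 and 4.78 in obese FB cells (-2.83 ± 0.30, adjusted p = 3.92e-05). Cyp2e1, a cytochrome P450 that oxidises ethanol and ketones, was at 6.80, 8.09, 7.43 and 6.88 in lean and at 5.49, 5.68, 5.11 and 4.07 in obese FB cells (-2.21 ± 0.38, adjusted p = 0.00243). The obese arrays of both genes lay below the array median. Without lean FB arrays 1, 2 or 3, 4 of the list fell, without obese FB array 1, 2 or 3, 5 fell, and without the arrays numbered 4, 11 fell and 2 rose. Of 37 antioxidant and glutathione genes 3 fell and 0 rose (8.11% called, against 5.89% of all genes tested). All 3 were glutathione transferases, Gsta3 (-1.13 ± 0.19), Gstm5 (-1.72 ± 0.32) and Gstt1 (-2.28 ± 0.46), enzymes that couple glutathione to toxic compounds. Without lean FB array 4, and likewise without the arrays numbered 4, 3 antioxidant genes rose and 5 fell. The mean centred level of the steroid list was 0.39 to 0.58 on lean FB arrays 1 to 3, -0.07 on lean FB array 4 and -0.52 to -0.28 on the obese arrays. Fibroblast markers had 1.22 to 1.42, -0.73 and -0.98 to -0.74 on the same arrays, and their part was not tested.

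The pyruvate dehydrogenase kinases, which switch off the entry of pyruvate into the tricarboxylic acid cycle, changed in opposite directions. Pdk1 was at 9.66, 9.34, 9.34 and 8.78 in lean and at 10.99, 10.40, 10.60 and 9.92 in obese FB cells (1.20 ± 0.25, adjusted p = 0.00969). Pdk4, which fasting and fatty acids induce, was at 7.79, 8.18, 7.96 and 7.36 in lean and at 5.84, 5.90, 5.51 and 6.15 in obese FB cells (-1.97 ± 0.28, adjusted p = 0.000512). The arrays did not overlap in either gene. Of 33 genes of the cycle and the dehydrogenase complex 2 rose and 1 fell (9.09% called, against 5.89% of all genes tested), and 25 had a positive change. The second riser, Pdha1, a catalytic subunit of the complex, rose by 0.73 ± 0.20, and its call ended when any 1 was left out of lean FB arrays 1, 2 or 3 or obese FB arrays 1, 2 or 3 (highest adjusted p = 0.142). The Pdha1 call also ended without the brightness rule, with cyclic loess and with only the FB arrays in the fit. Without lean FB array 4, 5 of the list rose, and without the arrays numbered 4, 4 rose and 1 fell. Arg1, which splits arginine into ornithine and urea, was at 10.02, 10.48, 10.58 and 9.27 in lean and at 7.64, 7.19, 8.02 and 6.40 in obese FB cells (-2.78 ± 0.37, adjusted p = 0.000311), and it was the only call among 21 arginine and polyamine genes, with all arrays and without the arrays numbered 4.

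Lipid-handling enzymes outside oxidation were also called. The secreted phospholipase Pla2g2d, which releases anti-inflammatory fatty acids, was at 11.12, 10.96, 10.97 and 8.52 in lean and at 6.56, 6.83, 6.78 and 6.49 in obese FB cells (-3.73 ± 0.62, adjusted p = 0.00178). Of 29 phospholipases 4 fell and 0 rose (13.8% called, against 5.89% of all genes tested). Without lean FB array 1, 2 or 3 or obese FB array 3 the count was 2, and without the arrays numbered 4, 5 fell and 1 rose. Plaat3, an adipose phospholipase A2, fell by 1.20 on the log2 scale, with a difference of -0.94 on the arrays numbered 4. Fabp5, a fatty acid carrier, rose by 0.74 ± 0.18 from 12.09 to 12.23 on the lean arrays to 12.49 to 13.21 on the obese arrays, and its call ended without lean FB arrays 2 or 3 or obese FB arrays 1 or 3 (highest adjusted p = 0.0813). The Fabp5 call also ended with only the FB arrays in the fit. Pparg, the lipid-activated nuclear receptor that drives such genes, was at 8.42, 7.94, 7.79 and 7.68 in lean and at 8.97, 9.18, 9.08 and 9.16 in obese FB cells (1.14 ± 0.20, adjusted p = 0.00279). Of 24 nuclear receptors Pparg was the 1 that rose with all arrays, 1 fell (8.33% called, against 5.89% of all genes tested) and 19 had a negative change. Without lean FB array 4, 2 rose and 3 fell, without the arrays numbered 4, 1 rose and 3 fell, and without lean FB array 2 or 3, 0 fell.

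Among lysosomal hydrolases 3 of 42 rose and 1, the arylsulfatase Arsb, fell (9.52% called, against 5.89% of all genes tested). Gusb, the beta-glucuronidase of lysosomes, was at 10.28, 10.16, 10.33 and 10.18 in lean and at 11.20, 11.13, 11.16 and 10.91 in obese FB cells (0.86 ± 0.16, adjusted p = 0.004). Lipa, the lysosomal acid lipase, rose by 0.65 ± 0.15, and its call ended without lean FB array 1 or 3 or obese FB array 3 (highest adjusted p = 0.066). Without lean FB array 1 or 3 or obese FB array 3, 2 hydrolases rose, and without obese FB array 4, 5 rose. With the arrays numbered 4 left out, 5 rose and 2 fell. The call of Arsb was absent without lean FB arrays 1, 2 or 3 and without obese FB arrays 1 or 4. It was also absent with the mean of its probe sets and with only the FB arrays in the fit.

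Membrane transport changed in both directions. Of 223 solute carrier family symbols, 11 rose and 11 fell (9.87% called, against 5.89% of all genes tested), and the median change was 0.04. Slc37a2, a sugar phosphate exchanger of macrophages, was at 8.23, 8.60, 8.47 and 7.36 in lean and at 10.29, 9.55, 9.98 and 9.30 in obese FB cells (1.62 ± 0.30, adjusted p = 0.00379). Slc9a7, a sodium and proton exchanger of the Golgi, rose by 1.09 ± 0.20. Slc13a3, which carries succinate and other dicarboxylates, was at 10.30, 10.03, 9.99 and 9.52 in lean and at 8.48, 8.22, 8.57 and 8.37 in obese FB cells (-1.55 ± 0.24, adjusted p = 0.000953). Slc12a5, a potassium and chloride cotransporter known from neurons, was at 9.56, 9.70, 9.35 and 9.39 in lean and at 6.59, 6.47, 5.26 and 7.11 in obese FB cells (-3.14 ± 0.39, adjusted p = 0.000168). One of the fallers, Slc9a3r2, encodes a scaffold that regulates exchangers and is not itself a carrier. Without lean FB arrays 1, 2 and 3, 6, 4 and 3 carriers rose and 5, 4 and 5 fell. When the arrays numbered 4 were left out, 15 rose and 17 fell. Without lean FB array 4, 15 rose and 20 fell, and without obese FB arrays 2, 3 and 4, 4, 5 and 7 rose and 7, 6 and 9 fell. Of 56 ion channels 3 fell and 0 rose (5.36% called, against 5.89% of all genes tested). They were Kcnq1 and the sodium channel subunits Scn7a (-2.61 ± 0.50) and Scn3b (-1.32 ± 0.25), each with obese arrays below the array median. Without the arrays numbered 4, 2 channels rose and 3 fell.

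Enzymes that build surface glycans gave 3 risers and 3 fallers among 54 (11.1% called, against 5.89% of all genes tested). Mgat5, which adds branches to N-glycans, was at 7.65, 7.56, 7.10 and 7.73 in lean and at 8.43, 8.72, 8.75 and 8.97 in obese FB cells (1.21 ± 0.22, adjusted p = 0.00373). Galnt12, which starts O-glycans, was at 6.07, 6.07, 6.09 and 5.80 in lean and at 7.16, 7.14, 7.13 and 7.12 in obese FB cells (1.13 ± 0.18, adjusted p = 0.00157). Both kept their calls in every other setting, while without lean FB arrays 1, 2 or 3 or obese FB arrays 1 or 3, 2 of the list rose and 0 fell. Without obese FB array 2, 2 rose and 1 fell, without obese FB array 4, 3 rose and 1 fell, and without lean FB array 4, 6 rose and 3 fell. With the arrays numbered 4 left out, 6 rose and 4 fell.

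Interferon-stimulated genes, which limit the growth of viruses, held 8 fallers and 0 risers among 25 tested (32% called, against 5.89% of all genes tested), with a median of -0.43. The guanylate-binding proteins and immunity-related GTPases, which attack vacuoles of intracellular microbes, had 3 fallers among 9 (33.3%, against 4.07% of all genes tested). All 9 had a negative change, with a median of -0.93. Lean FB array 4 lay above every obese array in both lists. The mean centred level of the interferon list was 0.25, 0.29, 0.31 and 0.35 on lean FB arrays 1 to 4 and -0.52, -0.11, -0.19 and -0.38 on obese FB arrays 1 to 4. The same arrays had 0.48, 0.49, 0.64 and 0.24, and -0.77, -0.37, -0.50 and -0.21, for the GTPases. Dendritic cell markers had 0.29, 0.51, 0.54 and 0.54, and -0.39, -0.69, -0.44 and -0.36, on these arrays. B and plasma cell markers lay between 0.39 and 0.65 on the lean and between -0.81 and -0.28 on the obese arrays, and T and NK cell markers between 0.17 and 0.38 and between -0.42 and -0.10. Of the 8 T and NK cell markers tested, 2 were called lower (25%, against 4.07% of all genes tested), Cd2 (-2.86) and Thy1 (-1.32). A positive change was seen in 3 of the 8, and the median was -0.08. The part of these cells in the interferon result was not tested. When the arrays numbered 4 were left out, 6 interferon-stimulated genes and 5 GTPases fell.

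Many of the interferon-stimulated genes carry in their promoters the interferon-stimulated response element. The 250 bases before the start sites of 2 called interferon-stimulated genes and 2 called GTPases are shown because they hold the element, with matches to the element, GAAA followed by any 2 bases and GAAA, or its reverse complement, TTTC followed by any 2 bases and TTTC, in capitals. The sequences are from RefSeq, build GRCm38.p6, 5′ to 3′ on the strand of the gene, and lie at chr19:34640639-34640888 (plus strand) for Ifit1, chr5:92348890-92349139 (minus strand) for Cxcl10, chr3:142530086-142530335 (plus strand) for Gbp7 and chr3:142559794-142560043 (plus strand) for Gbp3.
Ifit1: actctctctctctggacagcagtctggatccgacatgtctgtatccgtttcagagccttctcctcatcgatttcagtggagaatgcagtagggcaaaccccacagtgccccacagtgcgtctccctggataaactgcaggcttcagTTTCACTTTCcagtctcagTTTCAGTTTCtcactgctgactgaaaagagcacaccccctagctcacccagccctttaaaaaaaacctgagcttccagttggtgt
Cxcl10: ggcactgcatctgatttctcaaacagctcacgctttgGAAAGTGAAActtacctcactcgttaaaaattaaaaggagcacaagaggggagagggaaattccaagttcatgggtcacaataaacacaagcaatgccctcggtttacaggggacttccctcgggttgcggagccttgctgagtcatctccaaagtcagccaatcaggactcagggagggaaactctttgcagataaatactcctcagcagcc
Gbp7: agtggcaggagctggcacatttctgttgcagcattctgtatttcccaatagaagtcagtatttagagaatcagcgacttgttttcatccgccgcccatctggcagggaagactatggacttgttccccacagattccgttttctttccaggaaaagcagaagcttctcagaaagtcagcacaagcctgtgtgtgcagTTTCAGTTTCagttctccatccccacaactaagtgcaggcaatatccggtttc
Gbp3: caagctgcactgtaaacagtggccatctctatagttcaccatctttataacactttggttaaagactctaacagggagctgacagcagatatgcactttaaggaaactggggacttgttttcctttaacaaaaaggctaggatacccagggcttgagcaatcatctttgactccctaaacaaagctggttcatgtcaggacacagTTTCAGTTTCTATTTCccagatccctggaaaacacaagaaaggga
The element began 104 and 85 bases before the start site of Ifit1, 213 bases before that of Cxcl10, 53 before that of Gbp7, and 45 and 39 before that of Gbp3, where the 2 matches overlapped. Searched on both strands in windows of 300 bases, from 250 before to 50 after the start site, it was found in 943 of 27025 promoters (3.49%) and in 294 of the 9631 tested genes with a promoter (3.05%). Of the tested interferon-stimulated genes with a promoter 11 of 20 held it (55.0%), and of the called ones 4 of 7 (57.1%), the called Oasl1, Oasl2 and Ifit2 having no match. Of the GTPases with a promoter, 6 of 6 tested and 2 of 2 called ones held it. Of all genes called lower, 19 of 365 held it (5.21%), and of those called higher, 5 of 164 (3.05%). A match says only that these letters are in the window.

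Ifit1, which binds viral RNA, was at 10.31, 10.57, 10.57 and 9.12 in lean and at 7.85, 7.85, 7.61 and 8.02 in obese FB cells (-2.31 ± 0.38, adjusted p = 0.00167). Oas2, which senses double-stranded RNA, was at 9.44, 9.32, 9.25 and 9.19 in lean and at 7.78, 8.12, 7.96 and 7.86 in obese FB cells (-1.37 ± 0.27, adjusted p = 0.00583). Gbp7 was at 10.84, 10.35, 10.49 and 10.42 in lean and at 9.25, 8.99, 8.96 and 9.30 in obese FB cells (-1.40 ± 0.17, adjusted p = 0.000154). In these 3 genes no obese array reached the lowest lean array. Gbp3 fell by 1.17 on the log2 scale, with a difference of -0.90 on the arrays numbered 4. Cxcl10, a chemokine for T cells, was at 12.59, 12.39, 12.55 and 12.03 in lean and at 10.68, 11.70, 11.47 and 11.63 in obese FB cells (-1.02 ± 0.24, adjusted p = 0.0203). Its call ended with median centring and when any 1 was left out of lean FB arrays 1, 2 or 3 or obese FB array 1 (highest adjusted p = 0.0719). Of the 25, the count of fallers was 2, 2 and 3 with lean FB array 1, 2 or 3 omitted, and 2, 5, 4 and 5 with each obese array omitted in turn. Ifit1, Oas2, Gbp7 and Gbp3 kept their calls in all of these.

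Single genes known from lymphocytes and from the cells that face them were among the fallers. Cd1d1, which presents lipids to NKT cells, was at 10.72, 10.59, 10.80 and 10.81 in lean and at 8.60, 8.83, 7.99 and 9.25 in obese FB cells (-2.06 ± 0.22, adjusted p = 3.92e-05). None of 19 genes of class I presentation was called by limma, 1 had an unadjusted p under 0.05, and 0 were called without the arrays numbered 4. Of 16 dendritic cell markers 7 fell (43.8%, against 4.07% of all genes tested), or 7 fell and 1 rose without the arrays numbered 4. Their mean level was 7.72 to 7.95 on the lean and 6.78 to 7.07 on the obese arrays, with lean FB array 4 the highest lean array. Irf4, a transcription factor of dendritic cells and of interleukin 4-treated macrophages, was at 10.50, 10.73, 10.75 and 10.45 in lean and at 8.95, 8.52, 8.12 and 8.88 in obese FB cells (-1.99 ± 0.23, adjusted p = 7.02e-05). Batf3, a partner of IRF factors, was at 9.53, 9.46, 9.55 and 9.47 in lean and at 8.65, 8.38, 8.46 and 8.42 in obese FB cells (-1.03 ± 0.21, adjusted p = 0.00876). Jchain, the joining chain of antibodies made by plasma cells, was at 10.52, 8.92, 9.01 and 7.68 in lean and at 6.94, 4.61, 6.06 and 6.10 in obese FB cells (-3.10 ± 0.51, adjusted p = 0.00167). Cd2, an adhesion molecule of T and NK cells, was at 8.40, 8.01, 8.42 and 7.41 in lean and at 5.03, 5.72, 5.39 and 4.65 in obese FB cells (-2.86 ± 0.33, adjusted p = 8.08e-05). Both stand in the lymphocyte and plasma cell marker lists, whose part in these results was not tested.

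Among transcription factors single genes were called. St18, a zinc finger factor of the Myt1 family, was at 5.79, 5.56, 5.70 and 5.06 in lean and at 7.68, 7.16, 7.33 and 7.73 in obese FB cells (1.95 ± 0.22, adjusted p = 8.08e-05), although its other probe set moved the other way. Cebpa, a factor of myeloid and fat cell differentiation, rose by 0.92 ± 0.25, a call that ended when any 1 was left out of lean FB arrays 1, 2 or 3 or obese FB arrays 1, 2 or 3 (highest adjusted p = 0.112). The Cebpa call also ended without the brightness rule, without normalization beyond the deposited scaling and with cyclic loess. Of 46 bZIP factors 1 rose and 2 fell (6.52% called, against 5.89% of all genes tested), and 32 had a negative change. Without lean FB array 4, 3 of these rose and 9 fell, and without the arrays numbered 4, 2 rose and 9 fell. Of 52 homeobox, SOX, GATA, FOX and RUNX factors 1 rose and 3 fell (7.69% called, against 5.89% of all genes tested). The fallers numbered 1 without lean FB array 2 or 3 and 6 without lean FB array 4. Without the arrays numbered 4, 2 rose and 6 fell. Tcf21, a factor of mesenchymal cells, was at 7.11, 7.24, 7.05 and 5.80 in lean and at 4.88, 5.24, 5.59 and 4.43 in obese FB cells (-1.77 ± 0.37, adjusted p = 0.00907). It was counted among the 3 fallers of this list, although it is a basic helix-loop-helix factor and belongs to none of the classes named. Of 247 C2H2 zinc finger proteins 1 rose and 3 fell, against 1.81% and 4.07% of all genes tested, without lean FB array 4, 6 rose and 8 fell, and without the arrays numbered 4, 5 rose and 7 fell.

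Several classes of basic cell machinery had few calls but changes of mostly one sign. Of 76 mitochondrial ribosomal proteins, which translate the proteins encoded by mitochondrial DNA, 3 rose and 1 fell (5.26% called, against 5.89% of all genes tested). Of the 76, 68 had a positive change with a median of 0.26, against 6390 of the 11908 genes tested and a median of 0.03. Their mean centred level was -0.21 to -0.08 on the lean and 0.07 to 0.22 on the obese arrays, with the arrays numbered 4 at -0.08 and 0.08. Mrps10 was the largest riser, at 6.29, 6.86, 6.88 and 6.72 in lean and at 8.23, 7.80, 7.82 and 7.66 in obese FB cells (1.19 ± 0.26, adjusted p = 0.0124), and the mean of its probe sets had an adjusted p of 0.051. Without lean FB arrays 1, 2 or 3 or obese FB arrays 1, 2 or 3, 1 rose, and without obese FB array 4, 5 rose. With the arrays numbered 4 left out, 7 rose and 1 fell. Of 38 proteasome subunits 1 was called (2.63%, against 5.89% of all genes tested), a rise of Psma1 (0.64 ± 0.17). Of the 38, 34 had a positive change with a median of 0.25, but the median difference on the arrays numbered 4 was -0.01. The call of Psma1 ended when any 1 was left out of lean FB arrays 1, 2 or 3 or obese FB arrays 1, 2 or 3. It also ended with only the FB arrays in the fit and with the mean of its probe sets (adjusted p = 0.825), and without the arrays numbered 4, 3 subunits rose. Of 38 DNA replication genes none was called by limma, 4 had an unadjusted p under 0.05 and 30 had a positive change with a median of 0.22, and without the arrays numbered 4, 1 rose and 1 fell. The mean centred level of this list overlapped between the groups, at -0.27 to -0.02 on the lean and -0.11 to 0.29 on the obese arrays. On the arrays numbered 4 it was -0.27 in lean and -0.11 in obese FB cells. The median changes of the mitochondrial ribosomal, proteasome and replication lists stayed positive without normalization, with median centring and with cyclic loess, between 0.18 and 0.34.

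Other classes had no called gene by limma with all arrays. Of 31 NF-kappaB signalling genes 3 had an unadjusted p under 0.05, and without the arrays numbered 4, 1 rose and 1 fell. Of 16 inflammasome genes 2 had an unadjusted p under 0.05 and the median change was 0.07. When the arrays numbered 4 were left out, none of the inflammasome, Notch or cytosolic ribosomal genes was called by limma. Of 22 Notch signalling genes 5 had an unadjusted p under 0.05, and the median of -0.0048 was 0.02 without normalization and 0.10 with median centring. Of 47 cytosolic ribosomal proteins 3 had an unadjusted p under 0.05, and the median of 0.05 became -0.02 with cyclic loess. Of 19 glycolysis genes 6, of 24 fatty acid oxidation genes 2 and of 17 circadian clock genes 2 had an unadjusted p under 0.05. Without the arrays numbered 4, 2 glycolysis genes and 1 oxidation gene rose and 4 clock genes fell. A count of 0 does not show that these genes were alike in lean and obese mice.

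The arrays numbered 4 gave smaller differences than the others for most of the called genes. Their own obese minus lean difference, 1 array against 1 with no test, had the sign of the overall change in 655 of the 701 called genes, 203 of the 216 that rose and 452 of the 485 that fell. Its size was below that of arrays 1 to 3 in 547 of the 701. For the risers the median difference was 0.68 on the arrays numbered 4 and 1.10 on arrays 1 to 3, and for the fallers it was -0.91 and -1.69. Since arrays 1 to 3 weigh more in the call, this is a description.

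**Figure D5:**
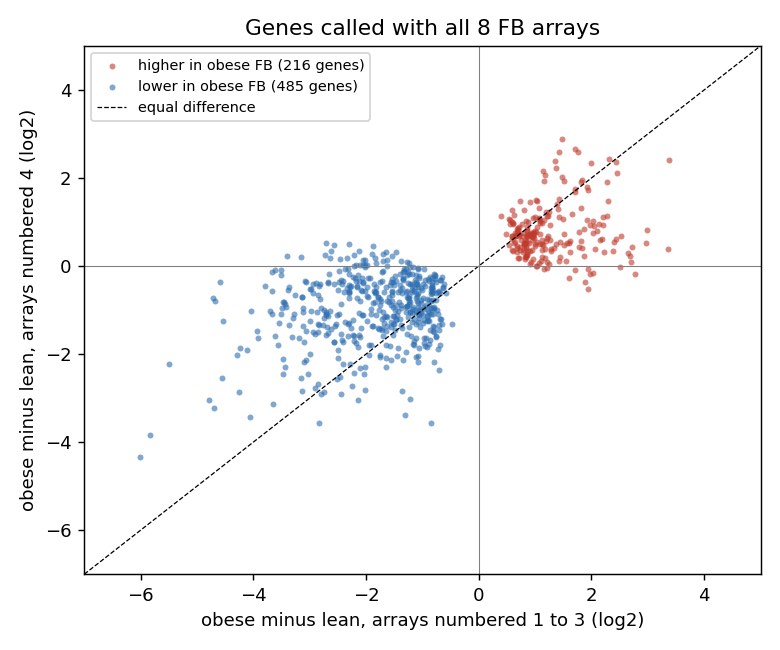
Obese minus lean difference (log2) of the 701 called genes on the arrays numbered 4 (vertical) against the mean difference on arrays 1 to 3 (horizontal), with genes that rose in red, genes that fell in blue and a dashed line of equal difference. For 547 of the 701 points the difference was smaller in size on the arrays numbered 4 than on arrays 1 to 3.

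Fitted without lean FB array 4 and obese FB array 4, 1495 genes were called (12.6%), of which 622 rose (5.22%) and 873 fell (7.33%). Of these, 655 were also called with all arrays, each in the same direction, 840 were called only without the 2 arrays, 421 of them higher and 419 lower, and 46 were called only with them. Gsr, which regenerates glutathione, was at 7.48, 7.97, 7.86 and 11.37 in lean and at 10.18, 10.73, 10.88 and 10.14 in obese FB cells, so that lean FB array 4 lay above every obese array. Its change was 1.81 ± 0.63 (adjusted p = 0.104) with all arrays and 2.83 ± 0.38 (adjusted p = 0.000359) without the arrays numbered 4. Taldo1, an enzyme of the pentose phosphate pathway, was at 10.98, 10.86, 10.81 and 12.24 in lean and at 12.25, 12.49, 12.32 and 10.97 in obese FB cells, with the order of the groups turned around on the arrays numbered 4. It changed by 0.79 ± 0.33 (adjusted p = 0.189) with all arrays and by 1.47 ± 0.19 (adjusted p = 0.000268) without them. Retn, which encodes resistin of mouse adipocytes, was at 7.22, 7.54, 7.57 and 4.51 in lean and at 4.29, 4.72, 4.62 and 6.02 in obese FB cells, and its change of -1.80 ± 0.58 (adjusted p = 0.0773) became -2.90 ± 0.37 (adjusted p = 0.000208). Of 26 collagen genes 3 fell with all arrays (11.5%, against 4.07% of all genes tested), 14 without lean FB array 4 alone and 13 without the arrays numbered 4. The median difference on the arrays numbered 4 was 0.07 against -1.29 in the fit without them. Fibroblast markers stood at 7.40 on lean FB array 4 and 9.28 to 9.51 on the other lean arrays, and their part was not tested.

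Some genes set the arrays numbered 4 apart within their group without a difference between obese and lean that was called with all arrays. Gas7, a growth arrest gene that binds actin, was at 10.24, 11.53, 11.08 and 6.35 in lean and at 9.68, 11.22, 10.81 and 4.79 in obese FB cells. Cap1, a protein that recycles actin monomers, was at 7.82, 8.92, 8.29 and 4.90 in lean and at 11.05, 11.35, 11.71 and 5.43 in obese FB cells, and without the arrays numbered 4 its change was 3.03 (adjusted p = 0.0209). Both were low on the 2 arrays with the highest actin ratio. Lean FB array 4 was high for Gadd45a, a DNA damage gene, at 11.56 against 7.24 to 7.56 on the other lean arrays. It was also high for Siglecf, the eosinophil lectin, at 11.98 against 7.98 to 8.53, and for Alox15, a lipoxygenase of eosinophils and peritoneal macrophages, at 10.43 against 6.30 to 6.96. The change of Siglecf was -1.53 ± 0.76 (adjusted p = 0.269) with all arrays and -0.61 without the arrays numbered 4.

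Whether the response of FB cells differed from that of FBC cells was tested as the difference of the 2 effects. By that test 19 of 11908 genes were called (0.16%), and 1576 had an unadjusted p under 0.05. The labels do not say whether equal array numbers mark 1 mouse, and with arrays of equal genotype and number taken as 1 mouse and the mouse as a random block, 158 genes were called. The replicate block gave 152. Of the 701 genes called in FB cells, 5 were among the 19, namely Lif, Stab2, Crem, Efnb2 and Slurp1, and 45 were called with the mouse as a random block. Of the genes described above, Cttn, Fpr2, Gsta3, Gusb, Itga8, Myo10 and Slc9a3r2 were called with that block and not without it, with adjusted p of 0.0155 to 0.0309. Lif rose by 1.05 in FB cells and fell by 1.67 on the log2 scale in FBC cells (adjusted p of the difference = 0.00155). Slurp1, a secreted Ly6-family peptide, fell by 0.98 in FB cells and changed by 0.98 in FBC cells (adjusted p of the difference = 0.0412). Stab2, a scavenger receptor for hyaluronan, rose by 0.73 in FB and by 1.81 in FBC cells. The ephrin ligand Efnb2 fell by 1.15 in FB cells and fell by 3.30 in FBC cells, and the cyclic AMP-responsive factor Crem fell by 0.69 and fell by 2.15 in the same order. The FB calls of Crem, Efnb2 and Slurp1 ended in some of the single-array omissions, those of lean FB arrays 2, 3 and 4 and obese FB arrays 1, 2 and 3 for Crem (adjusted p up to 0.129), lean FB array 3 and obese FB array 1 for Efnb2 (up to 0.0633), and lean FB array 3 and obese FB array 2 for Slurp1 (up to 0.0818). With the mean of the probe sets the adjusted p was 0.843 for Crem and 0.124 for Efnb2. Without normalization beyond the deposited scaling the FB calls of Stab2 (adjusted p = 0.0622) and Crem ended. That of Crem also ended with median centring, without the brightness rule and with only the FB arrays in the fit. The count of 19 was 7, 7, 3 and 349 with each lean FB array omitted in turn and 62, 6, 2 and 3 with each obese FB array omitted. For the large changes described above, such as Aldh1a2 (-2.63 in FBC cells), Itga6 (2.10), Gfra2 (-2.55) and Cd1d1 (-2.57), the difference between the 2 cell types was not called, with adjusted p of 0.289, 0.768, 0.986 and 0.484, or of 0.16, 0.682, 0.981 and 0.327 with the mouse as a random block. In the FBC comparison 1675 genes were called (14.1%), and 336 genes were called in the same direction in both, which is 47.9% of the FB calls and 20.1% of the FBC calls.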

How the data were processed

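RNA of sorted adipose tissue macrophages was measured on 16 Affymetrix mouse arrays, 4 per genotype and sort gate. The authors deposited a linear signal intensity per probe set, produced in Expression Console by Affymetrix, per the submitters' processing notes. The version, settings and build behind it were not given in the sources used here. The deposited intensities were turned into log2(intensity + 16) and quantile-normalized. Probe sets with 1 gene symbol in the platform annotation were kept (34945 of 45101), 932 with several symbols and 9160 with none were left out, and each of 18193 genes was read from its brightest probe set. A gene was tested if it exceeded the median of its array on 4 or more of 16 arrays (11908). limma 3.58.1 in R 4.3.3 fitted the 4 groups in 1 model, with Benjamini-Hochberg adjustment over all genes tested at 0.05, and a repeat left out lean and obese FB array 4. The pipeline was tested on simulated data. Figures used Python 3.11.15 and matplotlib 3.10.9. Promoters came from RefSeq tables of GRCm38.p6.

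The 92 gene lists and the rule for named genes were chosen with earlier results of these data known. The rule took the 30 largest changes in each direction with arrays that did not overlap, the 10 most abundant called genes, the 10 lowest adjusted p in each direction, up to 4 called members per list and direction, the sort markers, Lep, and genes that set the arrays numbered 4 apart. The text names some of these genes. For those taken as the largest changes, the lack of overlap between arrays was part of the rule and is not support for the change. Alox15, Cxcl10, Efnb2, Pdgfra, Plxnd1, Sema4a, Siglecf, Slc9a7 and Slurp1 fall outside the rule and were chosen after their values were seen. Same-numbered lean and obese FB arrays had correlations of 0.0888, 0.00744, 0.0846 and 0.19 between their deviations from the group means. Arrays of unlike number had -0.252 to 0.232, so the numbers were not taken to pair the mice. Alternatives covered the filter, probe set summary, normalization, pseudocount, variance moderation, array weights, blocks, the actin ratio and single arrays left out. Some items are not reported here.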

Additional observations from a re-analysis of the deposited data

Results flagged for a closer look

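A level was picked out where the gap between 1 array and the nearest of the other 3 of its group, divided by the range of the group, was above Dixon's 95% critical value, which chance gives in about 1 of 20 groups. Over 104 genes named in the text, and thus 208 groups, 33 levels met this, 24 of them on lean FB array 4. Over all genes tested the counts were 92, 78, 54 and 1040 on lean FB arrays 1 to 4 and 286, 74, 62 and 502 on obese FB arrays 1 to 4. Lean FB array 4 lay below the other lean arrays for 15 genes. The levels there were for Adm 8.11 (others 9.20 to 9.30), Aldh1a3 5.30 (others 7.63 to 7.88), Arsb 9.20 (others 10.32 to 10.39), Cttn 7.66 (others 9.21 to 9.51). Lower too were Dcn 10.56 (others 13.30 to 13.44), Flrt3 8.55 (others 9.88 to 10.07), Galnt12 5.80 (others 6.07 to 6.09), Kcnq1 6.95 (others 7.83 to 7.99). Below the rest were also Lyve1 11.58 (others 12.96 to 13.17), Pfn2 6.16 (others 7.22 to 7.30), Pla2g2d 8.52 (others 10.96 to 11.12), Retn 4.51 (others 7.22 to 7.57). The last were S1pr3 6.10 (others 8.45 to 8.67), Scn7a 6.16 (others 8.34 to 8.51), Tcf21 5.80 (others 7.05 to 7.24). It lay above them for 9 genes. These were Alox15 10.43 (others 6.30 to 6.96), Cx3cr1 9.44 (others 8.75 to 8.83), Fpr2 11.45 (others 9.82 to 9.91), Gadd45a 11.56 (others 7.24 to 7.56). Higher too were Gsr 11.37 (others 7.48 to 7.97), Rnf128 8.23 (others 7.21 to 7.37), Siglecf 11.98 (others 7.98 to 8.53), Taldo1 12.24 (others 10.81 to 10.98). The remaining level was Tlr13 10.10 (others 9.18 to 9.23).

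On the obese arrays the levels that stood apart were fewer. On obese FB array 1 they were for Fpr2 11.62 (others 12.29 to 12.37), Gstm5 6.13 (others 6.76 to 6.84), Lpar1 8.05 (others 6.79 to 6.92), Sirpb1a 11.11 (others 11.82 to 11.89). On obese FB array 2 they were for Slurp1 4.52 (others 4.81 to 4.83). On obese FB array 3 they were for Penk 5.26 (others 5.75 to 5.78). On obese FB array 4 they were for Cap1 5.43 (others 11.05 to 11.71), Gstt1 4.57 (others 5.26 to 5.35), Taldo1 10.97 (others 12.25 to 12.49). 

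For 5 genes the test of the difference itself separated the effect of obesity in FB cells from that in FBC cells. The FB effect minus the FBC effect was 1.46 for Crem, 2.15 for Efnb2, 2.72 for Lif, -1.96 for Slurp1, -1.08 for Stab2 (log2).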

How the results depend on the processing

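The 701 calls of the FB comparison became 3987 with array weights, of which 52.6% were higher in obese against 30.8% in the fit reported, 1159 with the actin ratio as a covariate and 2022 without the 3 arrays of highest actin ratio. Leaving out single FB arrays gave 333 to 1501 calls, and the other settings at the same threshold 585 to 1034, the highest with the replicate number as a block. No label says what arrays of equal number share. Of the arrays numbered 4, the actin ratio was 53.3 on lean FB, 48.0 on lean FBC, 45.0 on obese FB and 1.15 on obese FBC cells. The replicate block gave 1788 calls without the FB arrays numbered 4 against 1495. That comparison had 4674 calls with array weights, 963 at 2-fold or more and 779 to 1240 with a further array left out. The 19 genes whose effect differed between FB and FBC cells became 3 without the filter, 4 with a pseudocount of 1, 30 with trended and robust moderation, 1536 with array weights, 152 with the replicate block, 158 with the mouse as a random block, 298 without the 3 arrays of highest actin ratio and 2 to 349 with single FB arrays left out. The cause of these differences was not tested. Of 92 called genes named in the text, 67 were called in each of up to 22 other settings, 25 lost the call in at least 1, and none changed sign. Precision is limited by 4 arrays per group, by signals near the array median and by the actin ratio of the arrays numbered 4.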

Other observations

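Genes near Lep, the gene that differs between the lean and obese mice by design, were counted as a description. Among the tested genes in RefSeq gene order, 0 of the 20 nearest, 10 on each side, were called in the FB comparison (0.0%). Of the 50 nearest, 25 on each side, 2 were called (4.0%). Within 50 genes on each side 6 of 100 were called (6.0%), and within 100 genes on each side 15 of 159 (9.43%), against 5.89% of all genes tested.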
